A study of Mus musculus with 18 samples.

Results

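The homeostatic chemokines Ccl19, Ccl21a and Cxcl13, which organise lymphoid tissue, were followed through the aortas of 18 male ApoE-/- mice. They were chosen by their role, and each had 1 probe among the 1340 named genes that were measured well enough to be tested. The whole array carried 46624 probes, of which 21434 were tested. A pair of further probes, named Ccl21b and Ccl21c, is shown beside Ccl21a because these genes are near-identical copies. All mice lacked apolipoprotein E, received chow and were 13 to 14 weeks old when a minipump was implanted. The pump delivered angiotensin II at 1.44 µg/kg/min or saline for 4 weeks. Mice given angiotensin II were divided afterwards by outcome into an AAA group with an abdominal aortic aneurysm (n = 5) and a no AAA group without one, called aneurysm resistant (n = 7), and the saline group held 6 mice. RNA of each whole aorta was measured on its own array, without pooling, so vessel wall and any attached tissue were read together.

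Chemokines are small secreted proteins that guide leukocytes through receptors on the cell surface. Ccl19 and Ccl21 share the receptor Ccr7 and draw T cells and mature dendritic cells into the T cell zones of lymph nodes. Ccl21 is also made by lymphatic endothelium, along which dendritic cells leave tissues. Cxcl13 acts through Cxcr5 and draws B cells into follicles. Stromal cells of lymph nodes make all of them under the control of lymphotoxin and the non-canonical NF-kB pathway, and the same chemokines appear where lymphoid aggregates form in chronically inflamed tissue, including the adventitia of atherosclerotic arteries in ApoE-/- mice.

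Level here means the log2 ratio of a probe's signal to the median of all signals on that array, so that a step of 1 is 2-fold. Levels of different probes were not compared with each other. All 5 probes were detected on all 18 arrays, from 20 to 56 beads each, with a spread between beads of 3.5 to 10.44% of the signal. Median signals of the arrays ran from 108.1 to 142.6, and arrays detected 18647 to 21052 probes. The saline aortas were alone on BeadChip 1, no AAA 1 to 6 were alone on BeadChip 2, and the AAA aortas shared BeadChip 3 with no AAA 7. Saline and BeadChip 1 therefore cannot be told apart. A pair of aortas stood apart in these chemokines: saline 2 was the highest saline aorta for all 5 probes, and no AAA 7 was the lowest no AAA aorta for all 5. Over all tested probes, the level of no AAA 7 lay far from the rest of its group for 4.97% of probes, that of AAA 4 for 2.96%, that of saline 2 for 1.71%, and that of any other array for 0.4 to 1.12%. Results are given with and without saline 2 and no AAA 7 where these decide them. This pair was chosen after its levels had been seen, so p values without it are descriptive only.

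The start regions of the genes are shown because the 3 chemokines share upstream control in lymphoid stroma, for which sequence motifs are known. Each runs from 250 bases before the RefSeq start to 50 after it in build GRCm38.p6, with capitals for matches to the motifs searched. The Ccl19 window lies at chr4:42756316-42756615 on the minus strand, that of the gene now called Ccl21a at chr4:42773942-42774241 on the minus strand, and that of Cxcl13 at chr5:95956689-95956988 on the plus strand.
Ccl19: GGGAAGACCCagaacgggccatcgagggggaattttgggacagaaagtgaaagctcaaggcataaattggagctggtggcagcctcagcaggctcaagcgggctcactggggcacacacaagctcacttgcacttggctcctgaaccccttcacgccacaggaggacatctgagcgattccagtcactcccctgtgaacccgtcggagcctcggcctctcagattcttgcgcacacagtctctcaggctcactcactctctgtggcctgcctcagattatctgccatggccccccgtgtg
RefSeq Ccl21a: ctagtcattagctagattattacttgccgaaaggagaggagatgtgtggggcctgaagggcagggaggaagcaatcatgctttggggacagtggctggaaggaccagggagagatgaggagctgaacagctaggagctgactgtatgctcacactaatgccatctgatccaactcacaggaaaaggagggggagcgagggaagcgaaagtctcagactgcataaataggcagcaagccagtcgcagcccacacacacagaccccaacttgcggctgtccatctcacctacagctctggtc
Cxcl13: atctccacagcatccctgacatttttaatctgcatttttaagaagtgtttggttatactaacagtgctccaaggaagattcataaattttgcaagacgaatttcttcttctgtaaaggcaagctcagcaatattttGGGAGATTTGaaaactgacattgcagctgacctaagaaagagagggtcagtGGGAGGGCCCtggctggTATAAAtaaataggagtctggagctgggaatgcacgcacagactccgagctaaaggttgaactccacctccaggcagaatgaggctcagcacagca

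The NF-kB consensus, GGG and CC separated by any 5 bases and read on both strands, matched once in Ccl19, at position -250, and once in Cxcl13, at -63, each time in both directions. It was held by 50.8% of all 32851 promoter windows in the table, so these matches are common. The TATA box TATAAA, also read on both strands, occurred in Cxcl13 at -46 and in 13.6% of windows. A consensus for RelB and p52, the non-canonical NF-kB dimer, GGAGA and TTG separated by any 1 base with 1 more base before them, searched after the windows had been seen, matched Cxcl13 at -114 and 1.18% of windows. Because of this late search, the share of windows does not measure how unusual the Cxcl13 match is. That match did not overlap the other matches, and none of the 3 motifs was found in the Ccl21a window. The Ccl21a window differed by 2 of 299 bases from that of Ccl21d and by 3 from those of Gm13304 and Gm10591. It differed by 202 of 299 bases (32.4% identical) from the window of the gene now called Ccl21b, the transcript of the study's Ccl21a probe, so the printed window is not shown to describe that transcript. The windows were compared without gaps, so this value does not separate diverged bases from a shifted start or an inserted base.

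Ccl19 (Gene ID 24047, chromosome 4) was highest in aneurysms. Its levels in the AAA aortas were 4.05, 4.25, 3.91, 2.83 and 3.8 in replicates 1 to 5. In no AAA aortas the lowest, median and highest levels were 2.2, 2.62 and 3.27, and in saline aortas 1.84, 2.28 and 3.28. All AAA aortas but AAA 4 lay above every aorta without aneurysm, and AAA 4 lay inside the range of both other groups. The mean level was 3.77 ± 0.55 in AAA (SD, n = 5), 2.68 ± 0.36 in no AAA (n = 7) and 2.37 ± 0.5 in saline (n = 6).

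Ccl21 was measured by 3 probes that moved almost as one. The study's annotation and current RefSeq exchange a pair of names: the transcript that the study called Ccl21a is now listed as Ccl21b (Gene ID 100042493), and the study's Ccl21b is now Ccl21a (Gene ID 18829), the gene whose start region is printed above. The study's names are used here for probes. RefSeq listed 6 genes under Ccl21 symbols or synonyms, and which copies each probe reads was not tested. Over the 18 arrays, which share groups and normalisation, the 3 probes correlated at 0.988 to 0.996, and no array put a pair of them more than 0.32 apart after their mean offset was removed.

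Levels of Ccl21a did not overlap between AAA and no AAA aortas. What share of all tested probes separated these groups in this way was not counted. The study had listed this probe as different between them, so the separation is not independent evidence. Levels in AAA aortas 1 to 5 were 5.68, 5.22, 6.21, 4.95 and 5.17. The lowest, median and highest levels were 1.85, 3.79 and 4.08 in no AAA aortas and 3.37, 3.74 and 5.45 in saline aortas. Every AAA aorta was above every no AAA aorta for all 3 Ccl21 probes, while saline 2, at 5.45, was above 3 of the AAA aortas. All but 1 of the 7 no AAA aortas sat close together between 3.66 and 4.08, and no AAA 7 lay far below them at 1.85. Means were 5.45 ± 0.5 in AAA (SD, n = 5), 3.61 ± 0.79 in no AAA (n = 7) and 3.97 ± 0.75 in saline (n = 6).

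Cxcl13 (Gene ID 55985, chromosome 5) had another order of groups. Levels in AAA aortas 1 to 5 were 2.09, 2.51, 3.16, 3.08 and 2.78. In no AAA aortas the lowest, median and highest levels were 0.42, 1.63 and 2.26, and in saline aortas 1.81, 2.3 and 4.24. All AAA aortas but AAA 1 lay above every no AAA aorta, but none lay above saline 2, the highest aorta of the study for this gene. The means were 2.72 ± 0.44 in AAA (SD, n = 5), 1.57 ± 0.62 in no AAA (n = 7) and 2.55 ± 0.88 in saline (n = 6). The aorta with the least Ccl19 among aneurysms, AAA 4, had the second highest Cxcl13, and AAA 1, high in Ccl19, had the least Cxcl13.

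**Figure D1:**
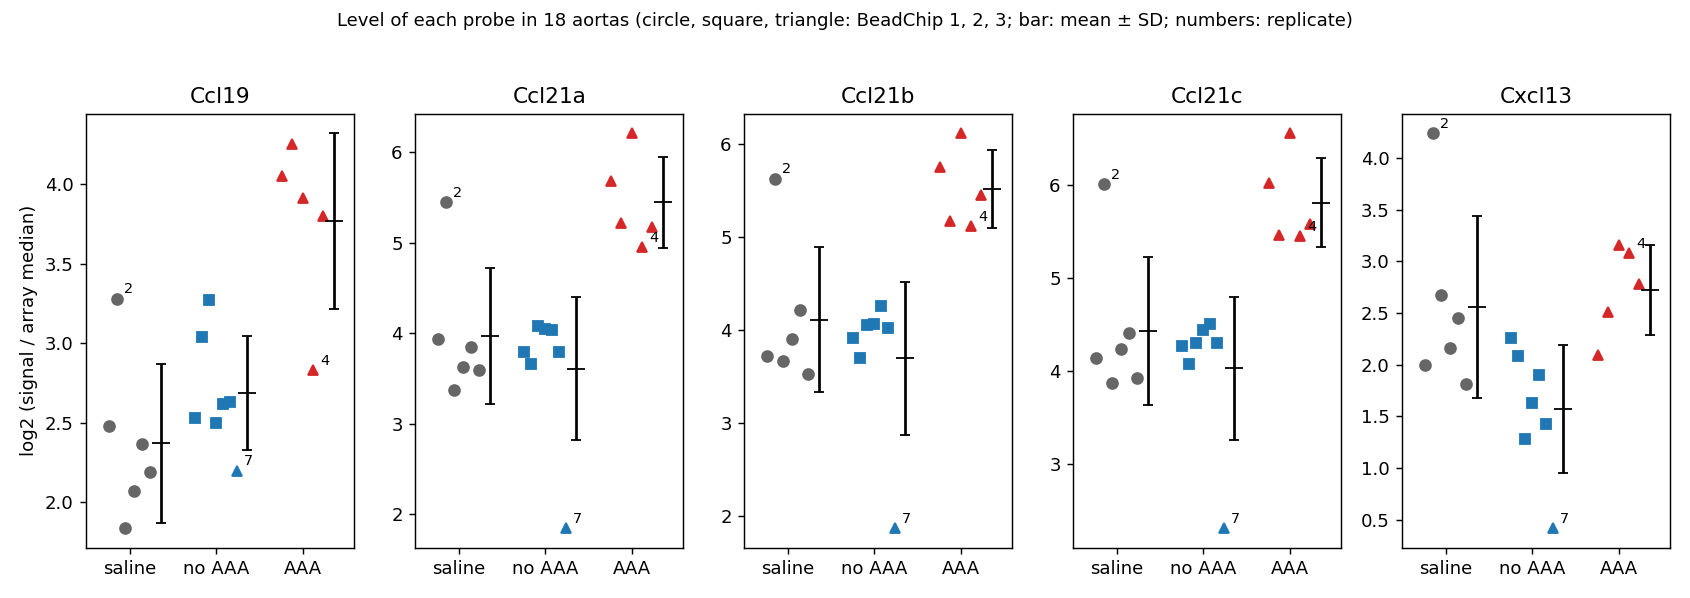
Levels of the 5 probes (log2 of signal over array median, vertical axis, scaled separately for each probe) in saline, no AAA and AAA aortas (horizontal axis), with shapes for BeadChips, bars for mean ± SD and the numbers of saline 2, no AAA 7 and AAA 4. AAA aortas lie above all no AAA aortas for the 3 Ccl21 probes, and saline 2 and no AAA 7 lie at the ends of their groups.

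Levels in AAA aortas were compared with those in no AAA aortas to separate aneurysm from exposure to angiotensin II. All members rose in aneurysms: Ccl21a 3.58-fold, Cxcl13 2.23-fold and Ccl19 2.12-fold. Of all tested probes, 10.8% were called higher and 8.46% lower in this comparison. On the log2 scale the difference for Ccl19 was 1.08 (SE 0.25, 95% interval 0.57 to 1.6), with an adjusted p of 0.0048 by limma. For Ccl21a it was 1.84 (SE 0.37, interval 1.06 to 2.61, limma adjusted p = 0.0021), with 1.82 and 1.79 for the Ccl21b and Ccl21c probes. Cxcl13 differed by 1.15 (SE 0.36, interval 0.41 to 1.9, limma adjusted p = 0.028). The median difference of all tested probes was -0.007. Division of each array by its own median largely sets this value, so it cannot show whether a shift was shared by the array.

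The Ccl19 and Ccl21 calls held when any 1 aorta was left out, with adjusted p between 0.00044 and 0.017 for Ccl19 and between 0.0007 and 0.01 for Ccl21a. The Cxcl13 call was lost without AAA 3 (adjusted p = 0.081), AAA 4 (0.056) or no AAA 7 (0.055) in the same limma fit, although its adjusted p was smaller without saline 2 and no AAA 7 together (difference 0.96, adjusted p = 0.0055). That pair was left out for its extreme levels of these probes, which narrows the spread, so the smaller p is not support for the call. With BeadChip as a fixed block the differences were 1.57 for Ccl19, 3.59 for Ccl21a and 2.31 for Cxcl13, values that rest on no AAA 7 alone, the only no AAA aorta on BeadChip 3. These probes owe their names to tables of transcripts that the study had listed as different, so a call is not independent evidence for them.

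Against saline controls, aneurysms had more Ccl19 and Ccl21 but not measurably more Cxcl13. Ccl19 rose 2.63-fold (1.39, SE 0.26, limma adjusted p = 0.00028) and Ccl21a 2.78-fold (1.47, SE 0.38, limma adjusted p = 0.0049). In this comparison 30.5% of all tested probes were called higher and 9.22% lower, and their median difference was 0.134, so a call alone marks little. With quantile normalisation in place of the array median, 3574 probes were higher and 3196 lower, against 6540 and 1977. The difference for Cxcl13 was 0.17 (SE 0.37, 95% interval -0.6 to 0.94, limma adjusted p = 0.74), an interval that still allows nearly a 2-fold rise. Without saline 2 and no AAA 7 it was 0.51 (SE 0.22, adjusted p = 0.081), and the differences for Ccl19 and Ccl21a were 1.58 and 1.77.

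In aneurysm resistant aortas, compared with saline controls, Cxcl13 was the only member to pass the test over all arrays. It was 1.98-fold lower in no AAA aortas, a difference of -0.98 (SE 0.34, interval -1.69 to -0.28, limma adjusted p = 0.023), where 10.1% of tested probes were called lower and 35% higher. With quantile normalisation 4350 probes were higher and 2913 lower, against 7498 and 2155. Of the no AAA aortas, 4 lay below every saline aorta. Ccl19 differed by 0.31 (interval -0.18 to 0.8, adjusted p = 0.29 by limma) and Ccl21a by -0.36 (interval -1.1 to 0.37, adjusted p = 0.42). The outlying aortas decide this comparison: without saline 2 the Cxcl13 difference was -0.65 (adjusted p = 0.056), without no AAA 7 it was -0.79 (0.051), and without both it was -0.46 (0.096). Without both, Ccl19 was higher in no AAA aortas by 0.57 (limma adjusted p = 0.04), and the sign for Ccl21a turned to 0.22 (0.33). Since both were left out for their levels of these probes, the Ccl19 call is not support for a rise.

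**Figure D2:**
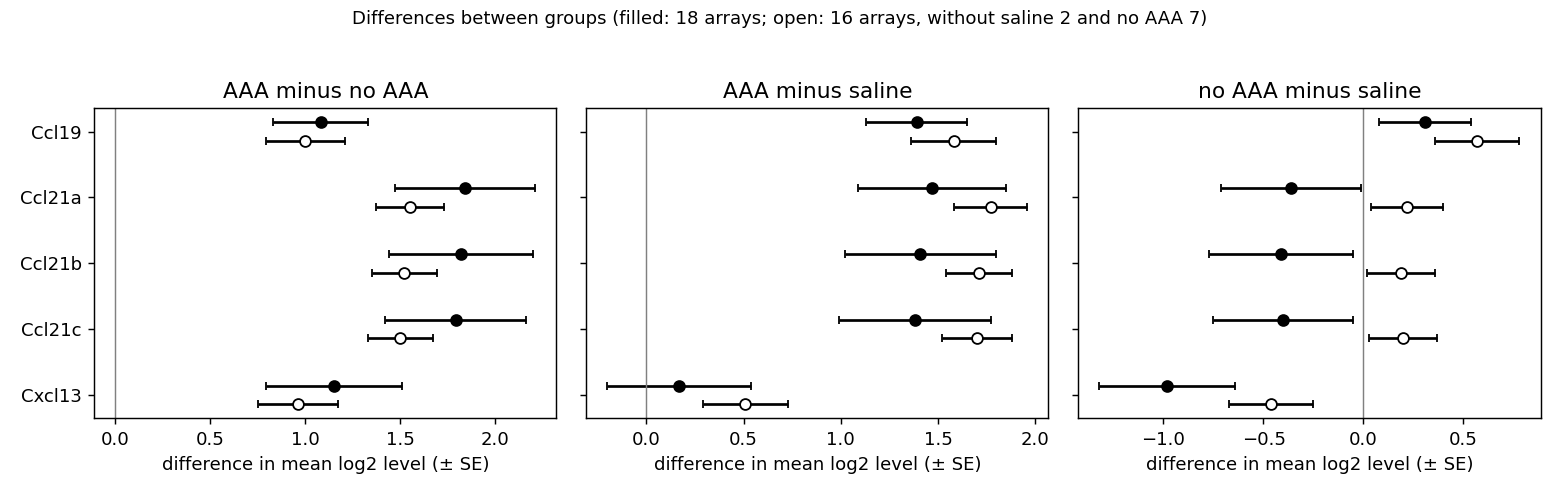
Differences in mean log2 level (horizontal axis, ± SE) of the 5 probes (vertical axis) in the 3 comparisons, over 18 arrays (filled) and over 16 arrays without saline 2 and no AAA 7 (open). AAA minus no AAA is above 0 for every probe either way, while the no AAA minus saline difference of Ccl21a moves from -0.36 to 0.22.

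Whether 2 members responded differently was tested on the difference of their log2 levels within each aorta, in which the scale of the array cancels. Exact two-sided permutation tests were made for 3 pairs in 3 comparisons, 9 in all, and adjusted over them. Cxcl13 less Ccl19 was 0.18 ± 0.6 in saline (SD, n = 6), -1.11 ± 0.6 in no AAA (n = 7) and -1.04 ± 0.88 in AAA (n = 5). Relative to Ccl19, Cxcl13 was thus lower in resistant aortas than in saline aortas by a log2 difference of -1.3 (SE 0.33, exact permutation p = 0.0035, adjusted p = 0.031). The same direction was measured in aneurysms against saline, at -1.22 (SE 0.46, exact permutation p = 0.03), without passing after adjustment (adjusted p = 0.068). Between AAA and no AAA the ratio differed by 0.07 (SE 0.45, exact permutation p = 0.86).

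Cxcl13 less Ccl21a was -1.42 ± 0.44 in saline, -2.04 ± 0.53 in no AAA and -2.72 ± 0.65 in AAA (SD, n = 6, 7 and 5). The AAA ratio was lower than the saline ratio by -1.3 (SE 0.34, exact permutation p = 0.0087, adjusted p = 0.038). Ccl21a less Ccl19 was 1.6 ± 0.28 in saline, 0.92 ± 0.65 in no AAA and 1.68 ± 0.54 in AAA. Resistant aortas had a lower value than saline controls, by -0.67 (SE 0.27, exact permutation p = 0.013, adjusted p = 0.038), with no AAA 7 lowest at -0.35. Each of the 3 ratio calls was lost without saline 2 and no AAA 7, at -1.03 (exact permutation, adjusted p = 0.071) for Cxcl13 less Ccl19, -1.26 (0.071) for Cxcl13 less Ccl21a and -0.35 (0.1) for Ccl21a less Ccl19. These calls were also near the threshold when single aortas were left out. Cxcl13 less Ccl19 was not called without any 1 of saline 2 to 5 (-1.32 to -1.14, exact permutation adjusted p up to 0.068), and Cxcl13 less Ccl21a without any 1 of saline 2 to 5 or AAA 1, 3 or 5 (-1.39 to -1.09, up to 0.071). Ccl21a less Ccl19 was not called without any 1 of saline 1 to 5 or no AAA 1, 2, 3, 6 or 7 (-0.73 to -0.46, up to 0.083). It was also lost without AAA 1, 3 or 5, which it does not contain, at the same -0.67, through the adjustment over 9 tests.

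**Figure D3:**
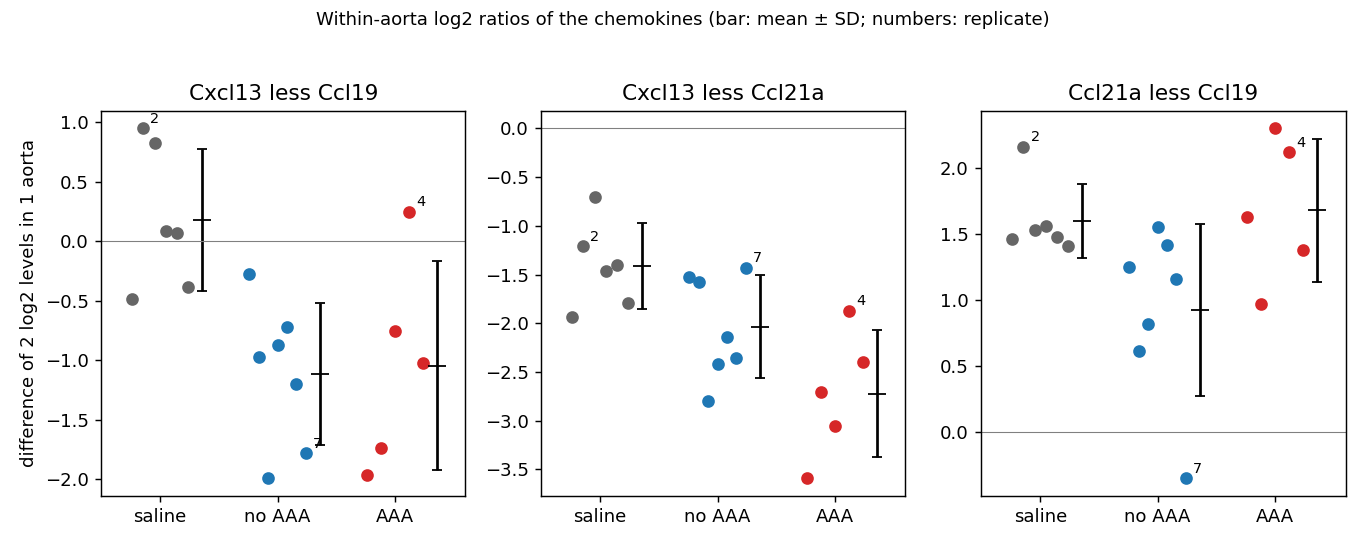
Difference of 2 chemokines' log2 levels in each aorta (vertical axis) for 3 pairs, by group (horizontal axis), with bars for mean ± SD and numbers for saline 2, no AAA 7 and AAA 4. Cxcl13 less Ccl19 averages 0.18 in saline against -1.11 in no AAA and -1.04 in AAA.

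Within groups, aortas with more Ccl19 also had more Ccl21a in the saline controls, where Pearson's r was 0.98 (n = 6, exact permutation p = 0.0056, adjusted p = 0.033 over 6 relations) and Spearman's rho 0.94 (exact permutation p = 0.017, adjusted p = 0.1). Pearson's r was 0.94 without saline 2 and saline 3, the aortas farthest from the median of Ccl19, which left fewer aortas than the minimum of 6 used here. The other 5 relations, with Cxcl13 in saline and all pairs in no AAA, did not pass (r 0.33 to 0.87, exact permutation, adjusted p 0.32 to 0.47). With the farthest pair of aortas left out in the same way, their r ran from -0.35 to 0.93. Correlations were not computed within AAA, where 5 aortas were held, fewer than the 6 taken as a minimum. Over all 18 aortas, deviations from the group means correlated at 0.68 for Ccl19 and Ccl21a, 0.7 for Ccl21a and Cxcl13, and 0.33 for Ccl19 and Cxcl13. Without saline 2 and no AAA 7 (16 aortas) the same values were 0.46, -0.16 and -0.47, so that the shared variation of Cxcl13 with the others lay in that pair of aortas.

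**Figure D4:**
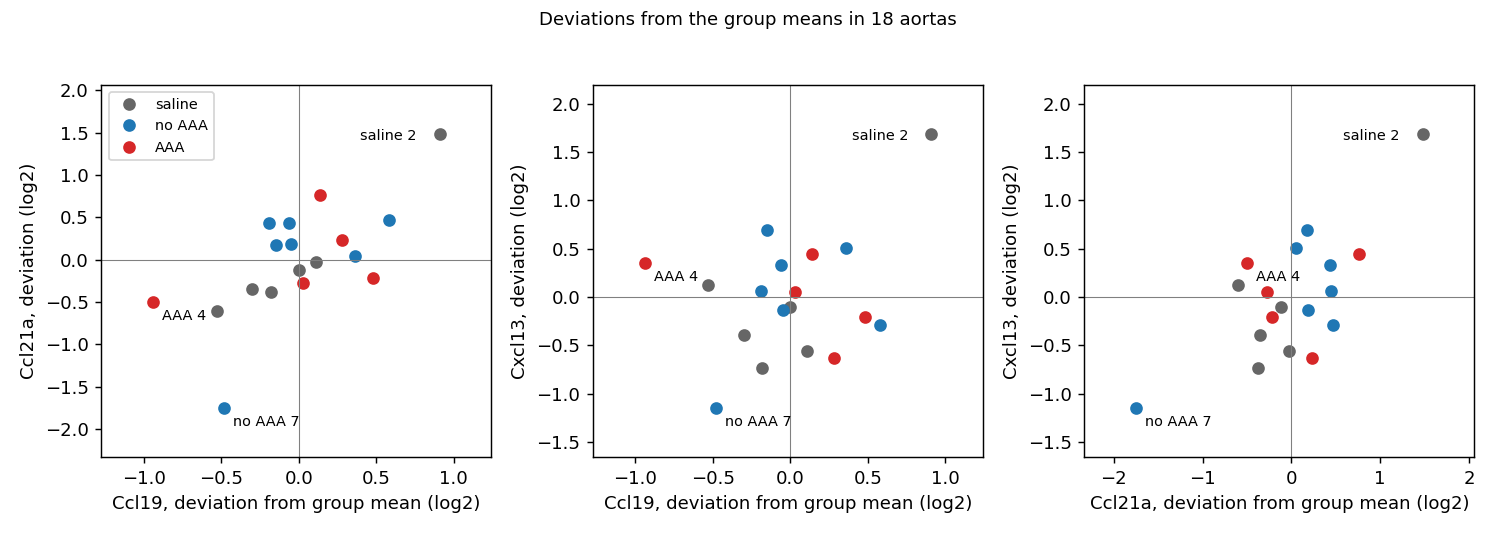
Deviation of each aorta from its group mean (log2) for 3 pairs of chemokines, coloured by group, with axes scaled separately. Saline 2 and no AAA 7 lie at opposite corners for Ccl21a and Cxcl13, where r is 0.7 with them and -0.16 without them.

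The genes whose deviations were most like those of each member were sought among 1335 other named genes. For Ccl19 they were Cdca7l (r = 0.9), Cd52, a lymphocyte surface peptide (0.87), Vcam1, an adhesion molecule for leukocytes (0.87), Bcl2a1a, a survival gene of the Bcl2 family (0.86), and Isg15, an interferon-induced gene (0.86). These values changed little without saline 2 and no AAA 7 (0.81 to 0.9 over 16 aortas). For Ccl21a they were Sash3, a lymphocyte adaptor (0.89), Coro1a, an actin regulator of leukocytes (0.89), Tnfrsf13b, a receptor of B cells for Baff (0.88), Cd52 (0.86) and H2-Aa, an MHC class II chain (0.85), and without the pair of aortas 0.22 to 0.67. For Cxcl13 they were Cd74, the MHC class II invariant chain (0.82), Il4i1, an amino acid oxidase of antigen-presenting cells (0.82), Tcra of the T cell receptor (0.81), Cd3d of the same receptor complex (0.8) and Rnase6 (0.8), and without them 0.17 to 0.67.

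Among the chemokine ligands that could be named, nearly all had higher levels in aneurysms. Of 40 ligands listed, 22 had a named and tested probe, and 21 of these, against 10.8% of all tested probes, were raised in aneurysms relative to resistant aortas, with a median difference of 1.39. Those with the smallest p were Cxcl9, an interferon-induced attractant of T cells (1.64, limma adjusted p = 7.7e-05), Cxcl14 (1.93, 0.00045), Cxcl12, a stromal chemokine that retains precursor cells in bone marrow (1.6, 0.00091), and Cxcl16, a membrane-bound ligand of macrophages (1.23, 0.0014). Since only transcripts that the study had listed as differing could be named, this count was largely set by the naming, and the other 18 ligands were not analysed here. The 3 Ccl21 probes, which moved almost as one, are counted separately among the 22, as are Ccl19 and Cxcl13. Ccl21a had the third largest difference of the 22, and Cxcl13 and Ccl19 lay in the lower part of the range. Against saline 19 ligands were higher in AAA aortas, where 30.5% of all tested probes were called higher. In no AAA aortas against saline, 4 of the 22 ligands were higher and 2 lower, against 35% and 10.1% of all tested probes. The lower ones were Cxcl9 (-1.3, limma adjusted p = 1.6e-05) and Cxcl13. Without saline 2 and no AAA 7 the counts were 19 higher in AAA against no AAA, 21 higher in AAA against saline, and 9 higher and 1 lower in no AAA against saline, the lower one being Cxcl9 (-1.06, 2.9e-05).

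**Figure D5:**
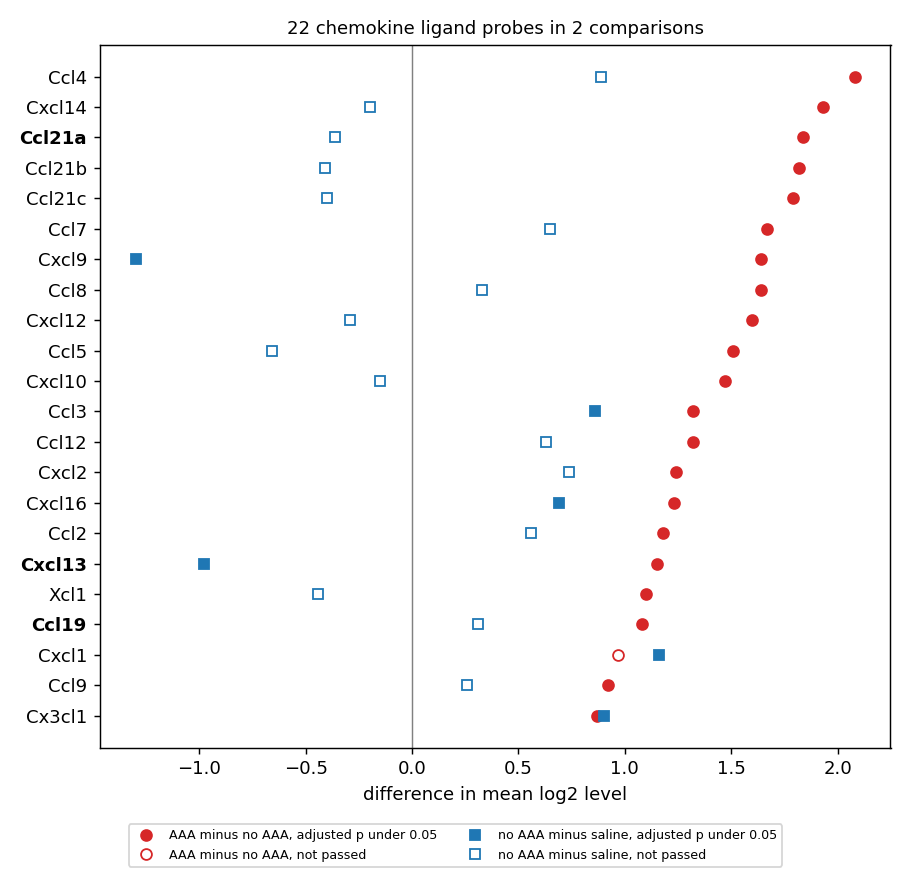
Difference in mean log2 level (horizontal axis) of 22 chemokine ligand probes (vertical axis) for AAA minus no AAA (circles) and no AAA minus saline (squares), which share the no AAA aortas, with filled marks at an adjusted p under 0.05 and members in bold. Circles lie between 0.87 and 2.08, and Cxcl9 and Cxcl13 are the filled squares below 0.

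Receptors and upstream genes were barely covered by named probes. Of 22 chemokine receptors listed, 2 were named and both were raised in aneurysms relative to resistant aortas, Cx3cr1, the fractalkine receptor (1.38), and Cxcr4, the receptor of Cxcl12 (1.54). Ccr7, Cxcr5 and the lymphotoxin genes Lta, Ltb and Ltbr were not analysed here, as no named probe was held for them. Of 17 genes of the lymphotoxin and non-canonical NF-kB list, only Tnfsf13b, the B cell survival factor Baff, was named. Its difference between AAA and no AAA was 0.5 (limma adjusted p = 0.094), but it was higher than in saline both in AAA (1.4, 4.5e-05) and in no AAA aortas (0.9, 0.0011).

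Among named markers of the cells that make or follow these chemokines, most were higher in aneurysms than in resistant aortas, where 10.8% of all tested probes were called higher. All were named from the study's lists of differing transcripts, so high counts follow in part from how they were named. By list, AAA exceeded no AAA aortas for 3 of 3 of lymphoid stroma (Vcam1, Pdpn, Tnfrsf11b), 4 of 4 of lymphatic endothelium (Pdpn, Reln, Mmrn1 and Ccl21a itself), 4 of 5 of B cells, 4 of 4 of antibody-producing cells, 3 of 4 of T cells, 10 of 10 of dendritic cells and MHC class II, and 9 of 9 of macrophages. These are counts of few named genes out of lists of 16, 8, 17, 15, 23, 16 and 12, and Pdpn is counted in both the stroma and the lymphatic list. The study found osteoprotegerin, the product of Tnfrsf11b, in the media and remodelled adventitia of aneurysms. The product of Tnfrsf11b was therefore not confined to lymphoid stroma, and which cells held RNA of the 3 stroma genes was not tested. Of the B cell genes, Tnfrsf13b (1.03, limma adjusted p = 0.00041), Cd72, an inhibitory receptor (1.98, 0.00091), Blnk, a signalling linker (1.24, 0.0013), and Cd52 (1.39, 0.04) passed, and Cd79b, of the B cell receptor, did not (1.21, 0.058). Of the T cell genes, the activation marker Cd69 (1.25, 0.002) and the cytokine receptor chains Il2rg (1.01, 0.0036) and Il7r (1.22, 0.0051) passed and Cd3d did not (1.02, 0.069). Without saline 2 and no AAA 7 both Cd79b (1.14, 0.013) and Cd3d (0.85, 0.0055) passed, and Tnfrsf11b (0.59, 0.059) did not, which left 2 of 3 stroma markers. Against saline, no AAA aortas were higher for 3 of 3 stroma and 6 of 9 macrophage markers, where 35% of all tested probes were called higher. They were higher for 1 of 5 B cell, 1 of 4 T cell and 1 of 10 dendritic cell and MHC class II genes. In this comparison Cxcl13 was lower and Ccl19 and Ccl21a did not pass. AAA aortas exceeded saline for 1 of 4 genes of antibody-producing cells, Sdc1 (1.78, limma adjusted p = 5.6e-06), where 30.5% of probes were called higher. Without saline 2 and no AAA 7 the count was 4 of 4. In bulk tissue more cells of a type and more RNA per cell cannot be told apart, and the part of cell numbers in the chemokine differences was not tested.

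Antibody genes had the widest range. Igkc, the kappa light chain, was 3.59 above resistant aortas in aneurysms on the log2 scale (limma adjusted p = 0.0046), beside Iglv1 (2.51, 0.027), Ighm, the heavy chain of IgM (2.0, 0.04), and Sdc1, a plasma cell marker (0.99, 0.0024). The leading dendritic cell genes were Fscn1, an actin bundler of mature dendritic cells (1.96, 0.00021), H2-DMb1 (1.07, 0.0014), Cd74 (1.3, 0.0018) and H2-Ab1 (1.4, 0.0021), all of the last 3 in MHC class II presentation. Between no AAA and saline aortas, Igkc fell as Cxcl13 did (-1.99, limma adjusted p = 0.043), and it too did not pass without saline 2 and no AAA 7 (-1.11, 0.2).

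Both outlying aortas also lay at the end of their group in sums of lymphocyte genes. In saline 2 the summed linear level of the 4 genes of antibody-producing cells was 659.9 array medians against at most 240.1 in the other saline aortas. The sum of the 5 B cell genes was 62.5 against 28.4, and that of the 4 T cell genes 25.9 against 8.6. The 9 macrophage genes summed to 325.8 in it against 275.7, and its fat cell genes to 1569.4 within the range of the others. Thus the saline aorta with the most Cxcl13 and Ccl21 also had the highest sums of the lymphocyte genes. In no AAA 7 the 10 genes of dendritic cells and MHC class II summed to 83.2 against at least 202.3 in the other no AAA aortas, and the 22 chemokine ligands to 90.2 against 180.7. Its 5 B cell genes summed to 15.4 against at least 25.1 and its 4 genes of antibody-producing cells to 12.9 against 21.1. The sums of its 4 T cell genes, at 8.1 against 8.3, and of its macrophage genes, at 348.3 against 344.3, were not set apart. Single T cell genes differed in this: the log2 level of Cd3d was 0.03 against at least 0.68 in the others, and that of Il7r 2.2 against at least 1.82.

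Across groups, summed B cell levels ran from 14.1 to 62.5 in saline, 15.4 to 35.4 in no AAA and 43.5 to 126.1 in AAA aortas, and T cell levels from 5.8 to 25.9, 8.1 to 12.4 and 16.5 to 29.2. Such linear sums weigh the brightest genes most. Between AAA and saline aortas, 4 of 5 B cell genes and 3 of 4 T cell genes were called higher. The receptor genes Cd79b (0.18, limma adjusted p = 0.78) and Cd3d (0.78, 0.13) did not pass there. Macrophage sums were 164.8 to 325.8, 344.3 to 518.8 and 514.6 to 1244.4, an order in which no AAA stood between saline and AAA, unlike Cxcl13. Fat cell sums were 1328.3 to 1818.4, 265.7 to 909.9 and 440.2 to 896.6, higher in every saline aorta than in any aorta exposed to angiotensin II. Smooth muscle sums, over 3 of 10 listed genes, were 25.7 to 41.2, 71.5 to 85.7 and 19.0 to 56.9. Smooth muscle genes moved against the chemokines between AAA and no AAA aortas, at -1.12 for Acta2 (limma adjusted p = 0.0026), -1.44 for Synpo2 (0.00074) and -1.0 for Kcnmb1 (0.001). Fat and smooth muscle markers were read in all groups, and their part in the chemokine differences was not tested.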

How the data were processed

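Whole-aorta RNA of 18 mice was hybridised to Illumina Mouse WG-6 arrays, 1 per mouse. The authors summarised beads with BeadStudio 2.3.41 and deposited an average signal intensity without normalisation, a detection score, a bead number and a bead spread per probe. Another 72 value columns of the table were not used. Arrays were matched to groups through the array names in the labels. A matrix of ratios that the authors deposited as well entered no result, because 12 of its 18 columns held the values of another array, 10 of them an array of another group. The groups used here rest on the array names in the labels, and if the matrix columns were right instead, those group differences would change.

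Of 46657 lines, 14 lines of bacterial controls were left out and repeated IDs averaged, which gave 46624 probes. Signals were divided by the array median and taken as log2. The 21434 probes whose detection score passed 0.95 on 5 or more arrays entered a fit of 3 group means to all 18 arrays (limma 3.58.1, R 4.3.3, eBayes with trend). P values were adjusted by Benjamini-Hochberg and called at an adjusted p under 0.05. Probes past the criteria of the study (unadjusted p below 0.05 with at least a 2-fold difference) were also counted on this fit, and the methods' unpaired t-test was run as an alternative. Precision is limited by the number of arrays. Permutation tests used scipy 1.17.1, and the limma pipeline was tested on simulated data. An array was taken as far from its group by Dixon's test at the 95% level.

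Probe names came from the study's tables of differing transcripts (1549 named probes), updated through RefSeq, and promoter sequences from RefSeq (GRCm38.p6). The members and gene lists were chosen with earlier results of these data known. Named genes were the members, at most 4 genes per chemokine or lymphocyte list with the smallest adjusted p in AAA against no AAA, the defining genes Cd79b, Cd3d and Igkc, and the 5 genes most like each member. A gene of the receptor list is not reported here. All genes of the stroma, lymphatic and smooth muscle lists were named, outside this rule, because few had probes. Alternatives covered normalisation, background, filtering, BeadChip and replicate blocks, and leaving out aortas.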

Additional observations from a re-analysis of the deposited data

Results flagged for a closer look

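Among 38 genes of this report in 3 groups, 114 combinations in all, the highest or lowest aorta lay far from the rest of its group by Dixon's test in 25, where chance marks about 1 in 20. Of these, 12 were saline 2, 12 no AAA 7 and 1 AAA 4. The combinations are not independent, since the genes share aortas and many were named for likeness to the chemokines.

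Saline 2 was far above the other saline aortas in Cxcl13 (log2 level 4.24) and in the Ccl21 probes, at 5.45 for Ccl21a, 5.63 for Ccl21b and 6.01 for Ccl21c. It was also far above them in T cell genes, at 3.37 for Cd3d, 1.84 for Tcra, 2.17 for Cd69 and 2.25 for Il2rg. The remaining genes were Sash3 (3.94), Tnfrsf13b (1.9), Il4i1 (2.36) and Rnase6 (2.78). Ccl19 was highest in saline 2, at 3.28, without passing this test.

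No AAA 7 was far below the other no AAA aortas in the Ccl21 probes, at 1.85 for Ccl21a, 1.87 for Ccl21b and 2.31 for Ccl21c. It was far below them in MHC class II genes, at 4.53 for Cd74, 4.26 for H2-Aa, 3.83 for H2-Ab1 and 1.24 for H2-DMb1. The other genes were Cd52 (1.06), Coro1a (3.52), Sash3 (2.0), Tcra (-0.31) and Tnfrsf13b (0.69). It is also the only no AAA aorta on BeadChip 3, and its place there and its own state cannot be told apart.

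AAA 4 was far below the other AAA aortas in Vcam1, at 6.27.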

How the results depend on the processing

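For AAA against no AAA, the Ccl21a difference stayed called under all 30 alternatives (1.5 to 3.59, adjusted p 8.5e-05 to 0.035) and that of Ccl19 under 29, all but the methods' t-test after adjustment (1.08, 0.082). The Cxcl13 difference, called under 24 of 30, was not called without a filter on dim probes (1.15, adjusted p = 0.052), with the replicate block (0.85, 0.099) or by the methods' t-test (1.15, 0.062). Leaving out 1 aorta at a time gave 0.96 to 1.31 for it. BeadChip as a random block gave 1.13, 2.01 and 1.27 for Ccl19, Ccl21a and Cxcl13, all called. Only no AAA 7 shares a BeadChip with the other group, so this block could hardly remove a BeadChip effect. Against saline, Ccl19 and Ccl21a in AAA stayed called under all 29 alternatives run, none of which separates saline from BeadChip 1. Cxcl13 there turned to -0.04 with quantile normalisation. In no AAA against saline, Cxcl13 was not called with the replicate block (-0.79, 0.051), by the methods' t-test (-0.98, 0.091) or without saline 2 and no AAA 7 (-0.46, 0.096), an alternative chosen after seeing the data, and leaving out 1 aorta gave -1.13 to -0.65. Without that pair, Ccl19 passed (0.57, 0.04) and Ccl21a, Ccl21b and Ccl21c turned to 0.22, 0.19 and 0.2.

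The log2 ratios were tested with 9 exact permutation tests. With aortas paired by replicate number, a replicate block, the called ones gave -1.18 (Cxcl13 less Ccl19, no AAA minus saline), -1.38 (Cxcl13 less Ccl21a, AAA minus saline) and -0.46 (Ccl21a less Ccl19, no AAA minus saline), each with an adjusted p of 0.19. The smallest p such a design allows is 0.062 with 5 pairs (AAA) and 0.031 with 6 (no AAA), so these losses say nothing about stability. Without saline 2 and no AAA 7 they gave -1.03, -1.26 and -0.35. Leaving out 1 aorta gave -1.44 to -1.14, -1.52 to -1.09 and -0.78 to -0.46, with 4, 7 and 13 of 18 not called. Of the ratios that were not called, Cxcl13 less Ccl19 between AAA and no AAA turned to -0.08 with the block and -0.04 without the pair, with -0.25 to 0.3 when 1 aorta was left out. Cxcl13 less Ccl19 between AAA and saline ran from -1.55 to -1.0 and was called without AAA 4 (-1.55, 0.029), and Ccl21a less Ccl19 from 0.54 to 0.93 between AAA and no AAA, called without AAA 2 (0.93, 0.043), and from -0.07 to 0.26 between AAA and saline. The cause of these changes was not tested.

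All 5 probes were detected on every array. The replicate numbers, which are positions on the BeadChips for all aortas but no AAA 7, did not pair aortas: the deviations of 16 same-numbered pairs correlated at -0.188 to 0.293 (median -0.041), over 0.1 in 4. Counts over all probes moved by more than 1.5 times in AAA against no AAA with a fixed BeadChip block (1034 higher and 450 lower, against 2310 and 1813) and by the methods' t-test (473 and 323). Fewer were lower without AAA 1 (1204) or AAA 3 (1051). Quantile normalisation gave 3574 higher and 3196 lower probes in AAA against saline (6540 and 1977 with the array median) and 4350 higher in no AAA against saline (7498). At 2-fold and unadjusted p under 0.05, the fixed block gave 1247 higher and 250 lower (505 and 89), leaving out AAA 1 or AAA 3 gave 43 or 59 lower, and normexp and quantile gave 211 and 57 higher in no AAA against saline (129).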
